A study of Homo sapiens with 4 samples.

Results

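A set of 43 germ cell genes, here meaning genes whose expression is known mainly from germ cells, from meiosis or from tumours that switch on testis genes, were followed in HEK293T, a transformed cell line derived from human embryonic kidney. All 43 symbols were among the 38972 genes of the deposited table. The members were chosen by symbol, and partly selected on measured values: the list was drawn up with their TPM and the oeRNH1 against oeFlag differences in view, and GCNA and RFPL4A were on it as known large increases, so the fold changes of members below are descriptions and support nothing beyond themselves. The 4 libraries were 2 labelled oeRNH1, from cells overexpressing RNase H1, which cuts the RNA strand of RNA-DNA hybrids, and 2 labelled oeFlag, from cells overexpressing Flag, an epitope tag, as control. All were made from total RNA of the same line with an mRNA kit, and the labels name no clone, vector or separate culture, so p-values measure only the spread between these libraries, which may be technical. Each library was given in TPM, a share of the library's transcripts that is corrected for length, and neither the depth nor the RNA per cell can be read from it. In bulk RNA, fewer cells that express a gene and less of its RNA per cell cannot be told apart.

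The label of the tested libraries was checked first. RNASEH1, the gene for RNase H1, stood at 29.93 and 29.67 TPM in the oeRNH1 libraries, against 32.09 and 32.8 TPM in the oeFlag libraries (log2 fold change -0.12 ± 0.06, SE, limma adjusted p = 0.260). The label is therefore not borne out by this gene's TPM, and directions given here compare libraries by label, oeRNH1 relative to oeFlag. Between 24568 and 24585 genes were above 0 in the oeRNH1 libraries, against 23556 to 23621 in the oeFlag libraries. Log2 values correlated at 0.99 within each group and at 0.98 across groups. Of the 8 markers of the line all were tested, from PAX2 at 1.5 TPM to VIM at 925 TPM on average. Of 7 germ cell markers KIT averaged 12.7 and TFAP2C 5.99 TPM, and the other 5, DDX4, NANOS3, DND1, DPPA3 and PRDM1, reached at most 0.73 TPM in any library.

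Germ cell genes are held silent in somatic cells by DNA methylation at CpG dinucleotides, by H3K9 methylation and by a Polycomb complex, PRC1.6, whose DNA-binding subunits E2F6, MGA and MAX recognise promoters of meiotic genes. In germ cells they serve distinct tasks: cohesin and synaptonemal complex proteins hold and pair meiotic chromosomes, recombinases exchange strands, and PIWI and Tudor proteins make the small RNAs that restrain transposons. Cancer-testis antigens are proteins of the testis, many encoded on the X chromosome, that tumours and transformed lines often switch on.

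The list split into genes that HEK293T cells transcribed and genes near 0. Averaged over the 4 libraries, 19 members reached 1 TPM, called expressed here, 9 lay between 0.1 and 1 TPM, and 15 lay below 0.1 TPM, called silent here. The expressed members had a median of 5.21 TPM, against 15.9 TPM for all 15651 genes at 1 TPM or more. All 3 meiotic cohesin members, 3 of 5 synaptonemal complex members, 3 of 4 of the other TEX genes and 4 of 7 cancer-testis antigens were expressed. None of the 5 members of the PIWI group was, and 1 of 5 Tudor genes was. Just inside the limit stood SMC1B with a mean of 1.27 TPM, and just outside it PIWIL4 with 0.933 TPM.

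**Figure D1:**
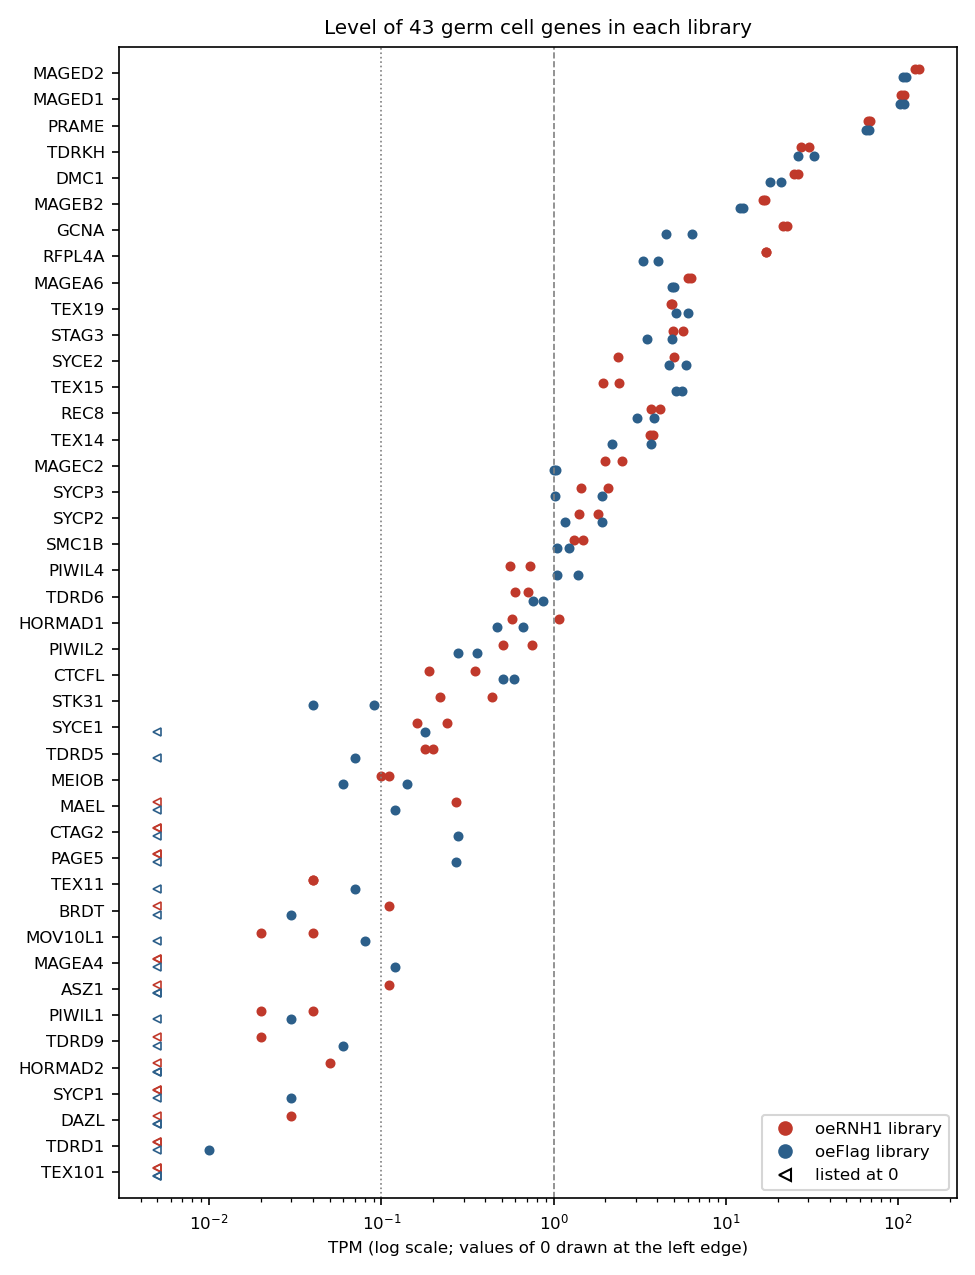
TPM of each of the 43 genes on a log axis, 1 row a gene, with red points for the 2 oeRNH1 libraries and blue points for the 2 oeFlag libraries. Dashed and dotted lines mark 1 and 0.1 TPM, and the 15 genes at the bottom, from MAEL down, average below 0.1 TPM.

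Of the 15 silent members, no library exceeded 0.28 TPM. TEX101, a protein of the sperm surface, was listed at 0 in all 4 libraries. The others were the translational regulator DAZL, the piRNA factors MAEL, MOV10L1, ASZ1 and PIWIL1, the Tudor genes TDRD1 and TDRD9, SYCP1, HORMAD2, TEX11, the testis bromodomain protein BRDT, and the antigens MAGEA4, PAGE5 and CTAG2. In none of these 15 did the groups separate. Several were above 0 in at most 1 library, where groups cannot separate, so nothing is read from this. Among all genes above 0 and below 1 TPM, a set that reaches higher levels, 16.6% were higher and 11.4% lower without overlap. Summed over the silent members, the level was 0.58 and 0.21 TPM in the oeRNH1 libraries, against 0.5 and 0.6 TPM in the oeFlag libraries. Of all 43 members, 35 and 33 were above 0 in the oeRNH1 libraries, against 31 and 34 in the oeFlag libraries.

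GCNA and RFPL4A were higher in both oeRNH1 libraries by about 4-fold. GCNA, a nuclear protein of germ cells that protects the genome from protein crosslinked to DNA (chromosome X, 71578411 to 71613583, plus strand, GRCh38, GENCODE release 29 gene models), was listed at 21.48 and 22.77 TPM in the oeRNH1 libraries, against 4.5 and 6.37 TPM in the oeFlag libraries. The means were 22.1 and 5.44 TPM, a 4.07-fold level, with a log2(TPM + 1) difference of 1.86 ± 0.15 (SE, n = 2 each). RFPL4A, whose mouse counterpart is a RING finger protein of oocytes (chromosome 19, 55759014 to 55763175, plus strand), stood at 16.98 and 17.02 TPM in the oeRNH1 libraries, against 4.06 and 3.28 TPM in the oeFlag libraries, a 4.63-fold level with a difference of 1.95 ± 0.12. The groups did not overlap for either gene. Both increases were known when the list was made, so no p is given for them, and their calls in the fit over the whole table are descriptions. Adjusted p-values printed for other members are descriptions too, because the list was drawn up with the differences in view.

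The RFPL4A value is shared with a copy. Of the 31-base words in its longest transcript, 73.0% also occur in RFPL4AL1, the neighbouring copy, so reads may be split between the genes. RFPL4AL1 was listed at 0.99 and 1.09 TPM in the oeRNH1 libraries, against 0.63 and 0.23 TPM in the oeFlag libraries. The sum of both copies was 17.97 and 18.11 TPM in the oeRNH1 libraries, against 4.69 and 3.51 TPM in the oeFlag libraries, so the separation does not depend on how reads were divided between them. GCNA shares 5.49% of its words with other genes.

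The promoters of these genes differ in CpG content, and they are shown with that of MAGEB2, which was also higher, and of MAEL, which was silent. Each is the 250 bases before the start of the gene in RefSeq's table on GRCh38.p14, 5′ to 3′ on the gene's strand, with CpG dinucleotides in capitals. The GENCODE model of RFPL4A starts 83 bases upstream of the RefSeq start, so for that gene only the 167 bases before the GENCODE start are shown.
RFPL4A (chr19:55758847-55759013, plus strand): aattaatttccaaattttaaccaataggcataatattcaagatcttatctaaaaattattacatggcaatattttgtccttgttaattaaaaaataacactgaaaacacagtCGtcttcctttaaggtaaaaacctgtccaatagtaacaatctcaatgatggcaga
GCNA (chrX:71578187-71578436, plus strand): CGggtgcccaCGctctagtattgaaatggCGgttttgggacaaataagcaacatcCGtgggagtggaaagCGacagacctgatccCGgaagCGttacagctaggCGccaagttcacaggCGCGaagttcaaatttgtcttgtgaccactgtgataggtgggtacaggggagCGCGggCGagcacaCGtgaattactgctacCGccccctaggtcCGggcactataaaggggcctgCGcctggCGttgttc
MAGEB2 (chrX:30215313-30215562, plus strand): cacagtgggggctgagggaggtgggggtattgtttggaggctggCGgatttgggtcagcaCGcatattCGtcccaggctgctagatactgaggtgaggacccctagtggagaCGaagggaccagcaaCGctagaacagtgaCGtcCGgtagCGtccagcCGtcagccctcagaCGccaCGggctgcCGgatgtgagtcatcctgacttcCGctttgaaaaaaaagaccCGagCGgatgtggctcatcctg
MAEL (chr1:166975332-166975581, plus strand): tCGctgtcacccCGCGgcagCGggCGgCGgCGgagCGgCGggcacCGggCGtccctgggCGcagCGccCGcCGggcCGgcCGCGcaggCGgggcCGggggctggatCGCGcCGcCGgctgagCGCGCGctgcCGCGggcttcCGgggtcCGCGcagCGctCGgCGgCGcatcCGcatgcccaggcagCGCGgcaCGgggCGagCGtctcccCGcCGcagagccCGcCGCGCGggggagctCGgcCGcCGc
RFPL4A holds 1 CpG in the stretch shown, GCNA 18, MAGEB2 15 and MAEL 51. The pair with the largest increases thus differs widely in CpG content.

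Cancer-testis antigens of the MAGE families, which bind RING-type ubiquitin ligases, were higher in both oeRNH1 libraries without overlap for 3 expressed genes, of which MAGEB2 was called, while PRAME overlapped. Over all tested genes 31.3% were higher without overlap and 6.3% were called higher. MAGEB2 (chromosome X, 30215560 to 30220089) stood at 16.44 and 16.79 TPM in the oeRNH1 libraries, against 12.53 and 12.09 TPM in the oeFlag libraries. It rose by 0.40 ± 0.08 on the log2 scale (SE, n = 2 each, limma adjusted p = 0.0360). MAGEC2 (chromosome X, 142202345 to 142205290), a partner of the corepressor TRIM28, stood at 2.49 and 1.98 TPM in the oeRNH1 libraries, against 1.03 and 1.01 TPM in the oeFlag libraries. Its groups did not overlap, but the difference of 0.67 ± 0.19 missed the threshold (limma adjusted p = 0.0739). PRAME, a substrate receptor of a ubiquitin ligase and the most abundant antigen of the list, stood at 66.93 and 68.21 TPM in the oeRNH1 libraries, against 65.43 and 67.81 TPM in the oeFlag libraries. Its difference of 0.02 ± 0.05 had a 95% interval from -0.11 to 0.15, and its sign changed under quantile normalization and without oeFlag replicate 1.

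MAGEA6 (chromosome X, 152766136 to 152769747) was at 6.29 and 6.01 TPM in the oeRNH1 libraries, against 4.85 and 4.99 TPM in the oeFlag libraries, which did not overlap. The difference of 0.27 ± 0.12 did not pass (limma adjusted p = 0.177). It shares 67.3% of its 31-base words with MAGEA3, and the sum of both genes was 13.56 and 14.64 TPM in the oeRNH1 libraries, against 10.45 and 10.41 TPM in the oeFlag libraries. The other 3 antigens were close to 0. MAGEA4 was listed at 0.12 TPM in 1 oeFlag library, PAGE5 at 0.27 TPM in 1 oeFlag library and CTAG2 at 0.28 TPM in 1 oeFlag library, and all were 0 elsewhere. CTAG2 shares 52.1% of its 31-base words with CTAG1A, and PAGE5 27.7% with other genes, so their reads may be split too.

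MAGED1 and MAGED2 belong to the branch of the MAGE family that most tissues express, and they were the most abundant members, above even PRAME. MAGED2, which is needed for salt transport in the fetal kidney (chromosome X, 54807599 to 54816012), stood at 132.01 and 126 TPM in the oeRNH1 libraries, against 110.77 and 106.91 TPM in the oeFlag libraries. It rose by 0.24 ± 0.05 on the log2 scale (limma adjusted p = 0.0363), a 1.19-fold level. MAGED1, an adaptor of the neurotrophin receptor, overlapped, with 108.32 and 103.9 TPM in the oeRNH1 libraries, against 102.8 and 107.64 TPM in the oeFlag libraries (0.01 ± 0.05). The sign of this difference changed without oeRNH1 replicate 1 and without oeFlag replicate 1.

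**Figure D2:**
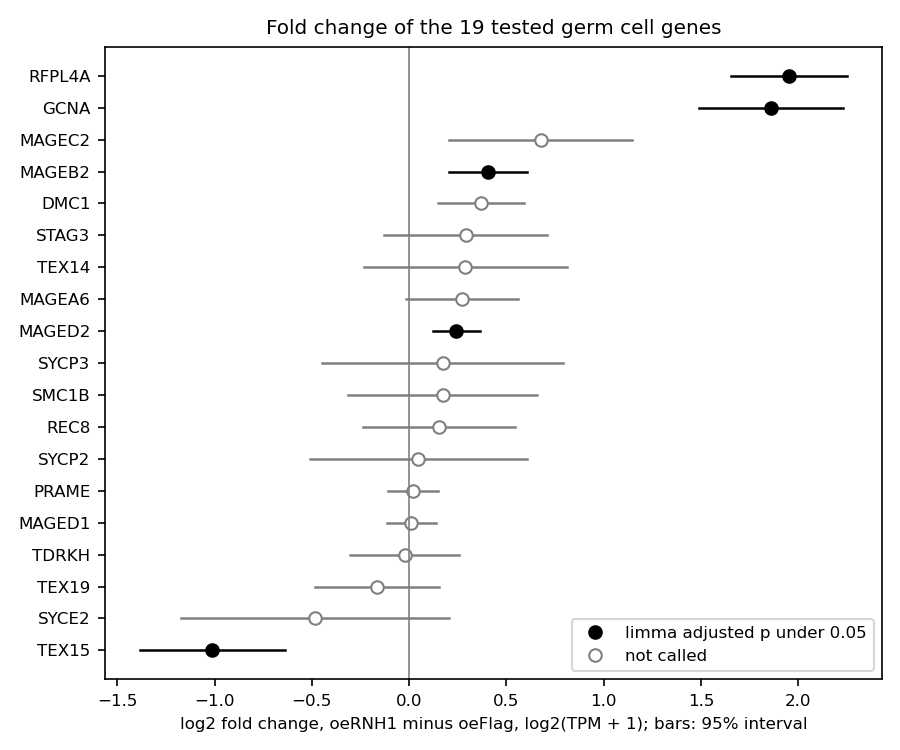
Log2 fold change of the 19 expressed members, oeRNH1 minus oeFlag on the log2(TPM + 1) scale, with bars for the 95% interval and filled points for limma adjusted p under 0.05. RFPL4A and GCNA stand apart at 1.95 and 1.86, MAGEB2 and MAGED2 are called at 0.40 and 0.24, and TEX15 is called at -1.01.

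Genes of the synaptonemal complex, the protein zipper between paired meiotic chromosomes, were low, and none was called. SYCE2, of its central element, stood at 4.98 and 2.36 TPM in the oeRNH1 libraries, against 5.9 and 4.7 TPM in the oeFlag libraries. One oeRNH1 library accounted for most of that gap and the groups overlapped (-0.48 ± 0.28, limma adjusted p = 0.296). GCDH, on the opposite strand, covers 24.1% of the exonic bases of SYCE2, and whether counting used strand is not given in the sources used here. SYCP3, of the lateral element, was at 2.06 and 1.45 TPM in the oeRNH1 libraries, against 1.92 and 1.02 TPM in the oeFlag libraries (0.17 ± 0.25). SYCP2, its partner, was at 1.4 and 1.81 TPM in the oeRNH1 libraries, against 1.17 and 1.91 TPM in the oeFlag libraries (0.05 ± 0.23). Signs of the SYCP3 and SYCP2 differences changed when single libraries were left out. SYCE1 was at 0.24 and 0.16 TPM in the oeRNH1 libraries, against 0 and 0.18 TPM in the oeFlag libraries, and 53.3% of its exonic bases are also covered by CYP2E1 on the opposite strand.

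Meiotic cohesin, the ring that holds sister chromatids, was transcribed at low level from all 3 members, and none was called. STAG3 stood at 5.64 and 4.96 TPM in the oeRNH1 libraries, against 3.5 and 4.88 TPM in the oeFlag libraries (0.29 ± 0.17, limma adjusted p = 0.303). Its exons overlap PVRIG on the same strand over 18.7% of their bases, and it has partial copies. REC8, the kleisin subunit, was at 4.15 and 3.67 TPM in the oeRNH1 libraries, against 3.03 and 3.83 TPM in the oeFlag libraries (0.15 ± 0.16). SMC1B was at 1.49 and 1.32 TPM in the oeRNH1 libraries, against 1.04 and 1.23 TPM in the oeFlag libraries (0.17 ± 0.20). STAG3 and SMC1B separated by group and REC8 did not, and all 3 intervals included 0.

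Every promoter of these 8 genes that pair and hold meiotic chromosomes carries TCCCGC or its reverse complement GCGGGA, letters of the kind that E2F proteins, E2F6 among them, recognise. The motif was searched on both strands of the 300-base window, from 250 bases before to 50 after the start. It was found in 15 of the 35 matched promoters of members (42.9%), against 42.7% of the promoters of tested genes and 26.9% of all promoters. Within the list it was in 8 of 8 synaptonemal complex and cohesin promoters and in 7 of 27 of the others. The motif itself holds a CpG, and those 8 had a higher median ratio of observed to expected CpG (0.859 against 0.749). This split was not tested. In mice, loss of E2F6 is known to release Stag3 and Smc1b in somatic tissue. A match is only a run of letters, and binding was not measured. For 3 of these genes the 250 bases before the start are shown with the motif in capitals.
SYCP2 (chr20:59933638-59933887, minus strand): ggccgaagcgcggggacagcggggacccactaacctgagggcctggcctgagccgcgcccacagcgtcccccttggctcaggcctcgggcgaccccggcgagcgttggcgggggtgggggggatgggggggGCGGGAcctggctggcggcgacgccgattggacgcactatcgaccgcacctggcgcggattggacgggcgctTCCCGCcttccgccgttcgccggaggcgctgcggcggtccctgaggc
SYCP3 (chr12:101739463-101739712, minus strand): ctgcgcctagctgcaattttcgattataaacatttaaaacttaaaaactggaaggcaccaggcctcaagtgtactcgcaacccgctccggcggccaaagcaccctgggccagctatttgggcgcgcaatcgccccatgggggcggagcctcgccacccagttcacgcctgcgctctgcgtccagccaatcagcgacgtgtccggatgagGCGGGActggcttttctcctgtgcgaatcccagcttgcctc
SMC1B (chr22:45413600-45413849, minus strand): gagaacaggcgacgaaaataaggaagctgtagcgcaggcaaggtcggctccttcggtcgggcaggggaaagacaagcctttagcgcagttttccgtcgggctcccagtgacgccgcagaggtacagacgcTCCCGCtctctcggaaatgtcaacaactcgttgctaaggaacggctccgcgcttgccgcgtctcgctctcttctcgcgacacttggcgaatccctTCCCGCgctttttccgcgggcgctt
SYCP2 has the motif 119 and 47 bases before the start, SYCP3 41 bases before it, and SMC1B 120 and 25 bases before it. The motif also occurs in 3 of 3 matched promoters of PIWI and piRNA factors, MOV10L1, ASZ1 and PIWIL1, all silent, and in none of 6 of cancer-testis antigens. CACGTG, the E-box that MGA and MAX bind, occurs in 6 of the 35 promoters, against 9.98% of those of tested genes, and GCNA has it 67 bases before the start. TGACGTCA, the cyclic AMP response element, occurs in 1 of the 35, MOV10L1. TATAAA, the fourth motif searched, occurs in 6 of the 35 (17.1%), against 5.67% of promoters of tested genes and 11.5% of all promoters. GCNA has it 29 bases and RFPL4A 11 bases before the RefSeq start, and the others are MAGED2, SYCP3, STK31 and BRDT. No test was run on these shares.

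DMC1, the recombinase that exchanges DNA strands in meiosis (chromosome 22, 38518949 to 38570286, minus strand), was the most abundant meiotic gene of the list. It stood at 26.1 and 24.76 TPM in the oeRNH1 libraries, against 20.8 and 18.15 TPM in the oeFlag libraries. The groups did not overlap, but the difference of 0.37 ± 0.09 missed the threshold (limma adjusted p = 0.0511). Of 15 other settings it passed in 3 (a minimum of 5 TPM, robust variances and the replicate block) and not in 12. After GC and length correction the difference was 0.30 (limma adjusted p = 0.0873). HORMAD1, of the chromosome axis, was at 0.57 and 1.07 TPM in the oeRNH1 libraries, against 0.66 and 0.47 TPM in the oeFlag libraries, and MEIOB, which binds single-stranded DNA, averaged 0.103 TPM over all 4 libraries.

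TEX15 was the member that fell. In mice TEX15 is needed for meiotic recombination and for silencing transposons in male germ cells. It stood at 1.94 and 2.38 TPM in the oeRNH1 libraries, against 5.56 and 5.15 TPM in the oeFlag libraries, a 2.48-fold higher level in oeFlag. The log2 difference was -1.01 ± 0.15 (SE, n = 2 each, limma adjusted p = 0.0188), and no 31-base word of its transcript occurs in another gene. TEX14, a protein of the bridges between germ cells, was at 3.64 and 3.76 TPM in the oeRNH1 libraries, against 3.67 and 2.17 TPM in the oeFlag libraries, which overlapped (0.29 ± 0.21). TEX19, whose mouse counterpart restrains transposons, was at 4.79 and 4.89 TPM in the oeRNH1 libraries, against 5.14 and 6 TPM in the oeFlag libraries. It was lower without overlap, but the difference of -0.17 ± 0.13 did not pass (limma adjusted p = 0.431), and an unnamed gene on the opposite strand covers 43.8% of its exonic bases.

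Of the 10 PIWI and Tudor members 1 was expressed. TDRKH, a Tudor protein that tethers PIWI proteins at mitochondria and is also transcribed outside the germ line, stood at 27.11 and 30.49 TPM in the oeRNH1 libraries, against 26.33 and 32.38 TPM in the oeFlag libraries (-0.02 ± 0.11). The sign of that difference changed when single libraries were left out. PIWIL4 was at 0.73 and 0.56 TPM in the oeRNH1 libraries, against 1.05 and 1.39 TPM in the oeFlag libraries. PIWIL2 ran the other way, at 0.75 and 0.51 TPM in the oeRNH1 libraries, against 0.28 and 0.36 TPM in the oeFlag libraries. PIWIL4 shares 13.5% of its 31-base words with FUT4, which lies in its exons on the same strand.

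Members between 0.1 and 1 TPM differed in both directions. The kinase STK31 was at 0.44 and 0.22 TPM in the oeRNH1 libraries, against 0.09 and 0.04 TPM in the oeFlag libraries. CTCFL, the germ cell relative of CTCF, was at 0.35 and 0.19 TPM in the oeRNH1 libraries, against 0.51 and 0.59 TPM in the oeFlag libraries. TDRD6, of the chromatoid body, was at 0.71 and 0.6 TPM in the oeRNH1 libraries, against 0.87 and 0.76 TPM in the oeFlag libraries. Among the 24 members below 1 TPM, 3 were higher in both oeRNH1 libraries without overlap (PIWIL2, STK31 and TDRD5) and 3 were lower (PIWIL4, TDRD6 and CTCFL). Among all genes above 0 and below 1 TPM those shares were 16.6% and 11.4%. These members were below the limit of 1 TPM for the test. The fit with no filter called 0 of 42 members, and 10 had an unadjusted p under 0.05 in it.

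Next to genes that serve the same task in somatic cells, the germ line members compared were minor. Mitotic cohesin exceeded its meiotic relatives, with SMC1A at 137 times SMC1B, RAD21 at 58.7 times REC8, and STAG2 and STAG1 at 52.5 and 7.9 times STAG3. CTCF was at 179 times CTCFL, AGO2 at 31.5 times PIWIL4 and 61.9 times PIWIL2. Of the 15 somatic counterparts 1 was called higher, 0 lower, and 14 passed in neither direction, with a median log2 fold change of 0.08. The share called was 6.67%, against 11.8% of all tested genes. The one called was BRD2, a bromodomain relative of BRDT, at 541.21 and 527.65 TPM in the oeRNH1 libraries, against 376.29 and 381.64 TPM in the oeFlag libraries (0.49 ± 0.04, limma adjusted p = 0.00521).

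**Figure D3:**
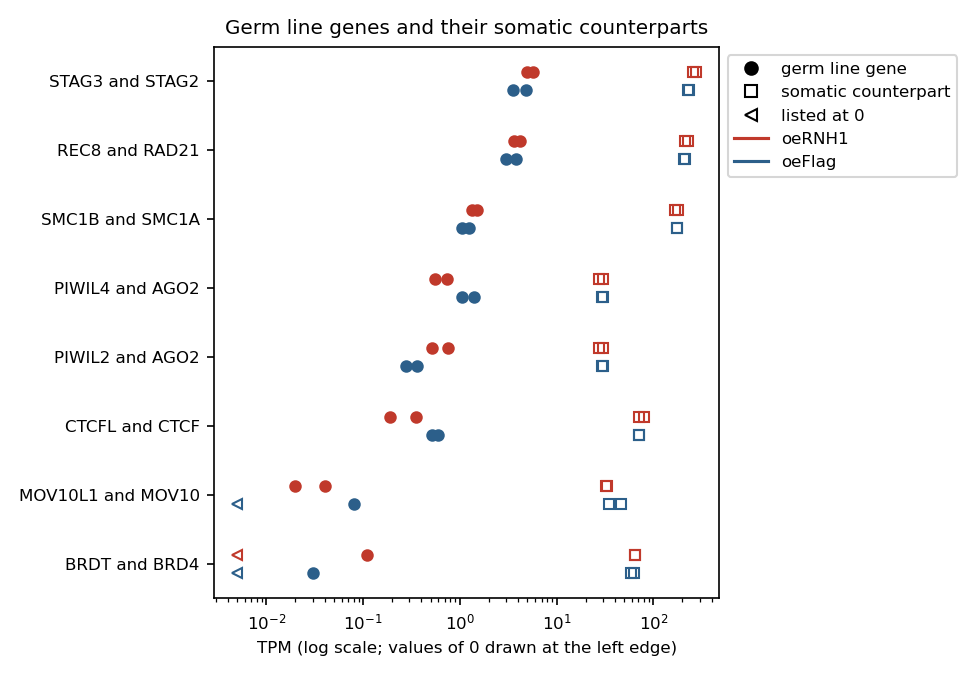
TPM on a log axis of germ line genes (filled circles) and somatic counterparts (open squares), oeRNH1 libraries in red above oeFlag libraries in blue. STAG3, REC8 and SMC1B lie far left of STAG2, RAD21 and SMC1A.

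Across the list, the fit over the whole table called 5 of the 19 members, 4 higher (RFPL4A, GCNA, MAGEB2, MAGED2) and 1 lower (TEX15). Over all 15651 tested genes 11.8% were called, 6.3% higher and 5.54% lower. Of tested genes averaging under 5 TPM 3.38% were called, and of the 9 members there, TEX15 was. Both oeRNH1 libraries were above both oeFlag libraries in 9 of the 19 members and below them in 2, against 31.3% and 29.4% of tested genes. The median log2 fold change of the 19 was 0.17, against 0.00 over all tested genes. These members had to average 1 TPM to be counted, and several were listed with this contrast known, so nothing is read from the counts. No member was called without oeRNH1 replicate 1, without oeRNH1 replicate 2 or without oeFlag replicate 1, and GCNA and RFPL4A alone were called without oeFlag replicate 2, in fits that leave 1 library in a group.

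**Figure D4:**
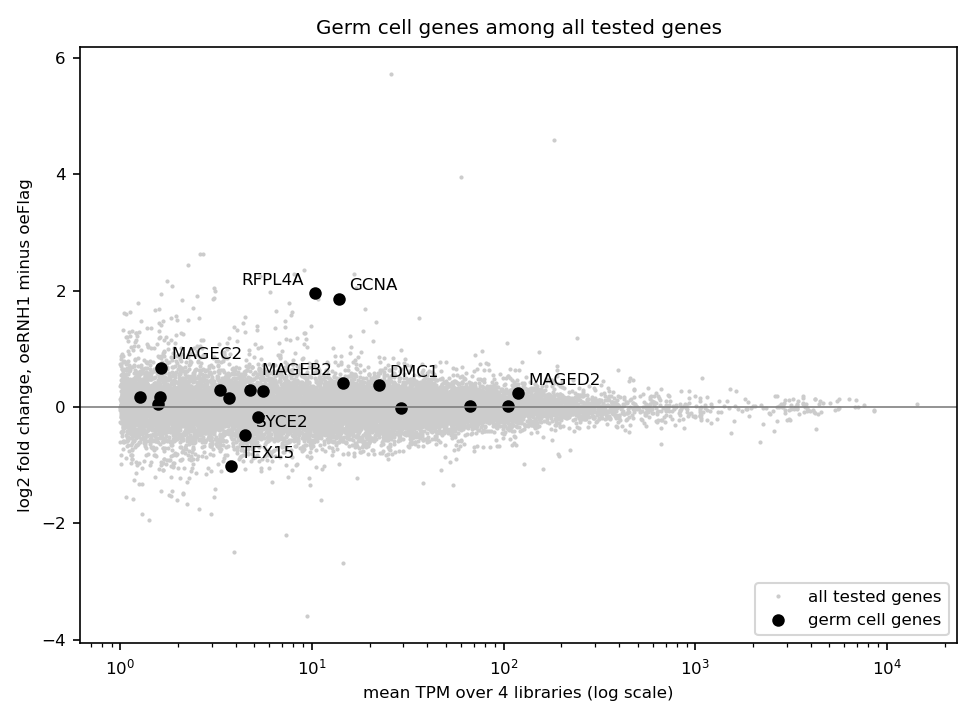
Log2 fold change, oeRNH1 minus oeFlag, against mean TPM on a log axis for all 15651 tested genes (grey) and the 19 expressed members (black). RFPL4A and GCNA lie above nearly all genes of their level, TEX15 lies low, and the abundant PRAME and MAGED1 lie on 0.

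On the X chromosome lay 6 of the 19 expressed members, and 5 of them (GCNA, MAGEC2, MAGEB2, MAGEA6 and MAGED2) were higher in the oeRNH1 libraries without overlap, against 31.3% of all tested genes. Of the 510 other tested genes on it 155 were higher without overlap and 189 lower, and their median log2 fold change was -0.02. The members were listed with this contrast in view, so nothing is read from the comparison.

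Germ cell genes beyond the list were mostly below 1 TPM, and those called moved both ways. Most genes of the table were below that level too, as 15651 of 38972 reached it. Of 53 other germ cell and meiosis genes 18 were tested, of which 2 were called higher, 1 lower, and 15 passed in neither direction, with a median of 0.10. The share called was 16.7%, against 11.8% of all tested genes. PSMC3IP, which with MND1 helps DMC1 to pair DNA strands, rose, with 104.6 and 99.87 TPM in the oeRNH1 libraries, against 67.1 and 63.57 TPM in the oeFlag libraries (0.64 ± 0.06, limma adjusted p = 0.00714). MND1 was at 45.42 and 52.37 TPM in the oeRNH1 libraries, against 48.59 and 50.82 TPM in the oeFlag libraries (-0.03 ± 0.08). MSH5, a MutS protein of meiotic crossovers, fell, with 19.96 and 17.38 TPM in the oeRNH1 libraries, against 31.76 and 34.94 TPM in the oeFlag libraries (-0.81 ± 0.09, limma adjusted p = 0.0116), and it shares a readthrough transcript with its neighbour SAPCD1. TEX10, a ribosome biogenesis factor despite its name, rose by 0.35 ± 0.05.

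Among 60 other cancer-testis antigens 12 were tested, of which 1 was called higher, 0 lower, and 11 passed in neither direction, with a median of 0.12. The share called was 8.33%, against 11.8% of all tested genes. MAGEA2B was the one called (1.49 ± 0.32, limma adjusted p = 0.0389), with 11.21 and 10.52 TPM in the oeRNH1 libraries, against 5.08 and 1.95 TPM in the oeFlag libraries. It has a near-identical copy, MAGEA2, at 3.94 and 4.1 TPM in the oeRNH1 libraries, against 3.95 and 6.39 TPM in the oeFlag libraries. The sum of both was 15.15 and 14.62 TPM in the oeRNH1 libraries, against 9.03 and 8.34 TPM in the oeFlag libraries. Other widely expressed MAGE genes had 0 calls among 5 tested of 9, and MAGEF1 and MAGED4 were the most abundant at 30.3 and 15.7 TPM on average.

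Factors linked to the silencing of germ cell genes were themselves expressed, and 4 were called. That was 6.25% of the PRC1.6 list and 16.7% of the methylation list, against 11.8% of all tested genes. Nothing is read from these counts. Of the 16 PRC1.6 genes 1 was called higher, 0 lower, and 15 passed in neither direction, with a median of 0.04. RYBP rose, with 58.31 and 55.41 TPM in the oeRNH1 libraries, against 43.64 and 44.99 TPM in the oeFlag libraries (0.35 ± 0.06, limma adjusted p = 0.0242). E2F6 was at 39.82 and 37.51 TPM in the oeRNH1 libraries, against 33.17 and 33.6 TPM in the oeFlag libraries, and did not pass (0.21 ± 0.07, limma adjusted p = 0.0919). Of 18 genes of H3K9 and DNA methylation 1 was called higher, 2 lower, and 15 passed in neither direction, with a median of -0.03. The 18 also hold TET1, TET2 and TET3, which remove DNA methylation, so the count is not of silencers alone. ATF7IP, the partner of the H3K9 methyltransferase SETDB1, rose by 0.32 ± 0.06. The H3K9 methyltransferase EHMT2 and the DNA methyltransferase DNMT3B fell by 0.41 ± 0.08 and 0.34 ± 0.07 on the log2 scale. Methylation and protein levels were not measured.

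Among the markers of other cell types 3 were called, while over all tested genes 11.8% were called. Of 7 germ cell markers 2 were expressed, KIT and TFAP2C, and neither was called. Summed, the 7 came to 19.44 and 17.65 TPM in the oeRNH1 libraries, against 20.45 and 21.39 TPM in the oeFlag libraries. DPPA3 was listed at 0 throughout. Of 5 markers of pluripotent cells or germ cell tumours SOX2 was expressed and not called. POU5F1 was at 1.14 and 1.09 TPM in the oeRNH1 libraries, against 0.62 and 0.79 TPM in the oeFlag libraries, without overlap and below the limit for the test, and NANOG, LIN28A and SOX17 were at most 0.11 TPM. Of 8 markers of testis somatic cells 2 were tested and 1, AMH, was lower (-0.37 ± 0.06, limma adjusted p = 0.0188). AMH stood at 44.15 and 43.43 TPM in the oeRNH1 libraries, against 57.77 and 56.35 TPM in the oeFlag libraries, while FSHR was listed at 0. Of 8 carcinoma epithelium markers 4 were tested and 2 were higher, KRT18 by 0.27 ± 0.05 and KRT8 by 0.24 ± 0.05. Summed, these 8 came to 192.72 and 189.42 TPM in the oeRNH1 libraries, against 160.42 and 159.73 TPM in the oeFlag libraries, and KRT7 was listed at 0. Of the 8 markers of the line itself VIM was higher and NEFM and NEFL were lower. Their part in the members' changes was not tested.

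CpG content did not sort the silent members from the expressed ones. Promoters were matched for 35 of the 43 members. The ratio of observed to expected CpG had a median of 0.788 in the 16 expressed, 0.721 in the 5 between 0.1 and 1 TPM and 0.806 in the 14 silent members, against 0.843 over the promoters of tested genes. The range within the list was wide, from 0.170 in TEX101 to 1.17 in SMC1B. Among roles with at least 3 matched promoters, the medians ran from 0.521 in 6 cancer-testis antigens to 0.880 in the 5 synaptonemal complex genes. These are descriptions over genes that share the same 4 libraries, with no test.

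**Figure D5:**
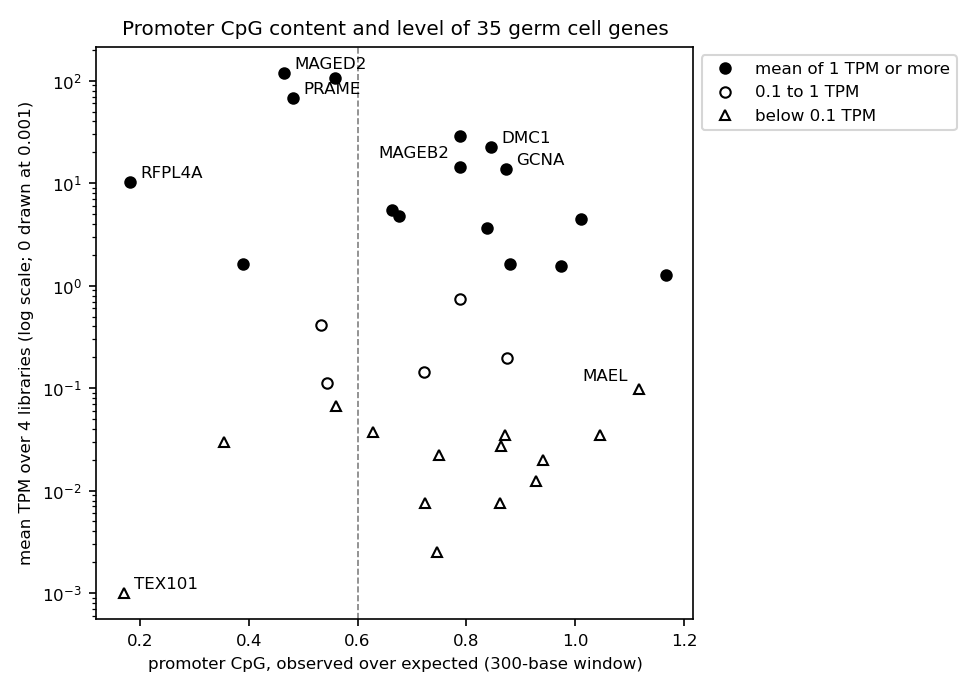
Mean TPM over 4 libraries (log axis) against promoter CpG, observed over expected in a 300-base window, for 35 members, with filled circles for expressed members, open circles for 0.1 to 1 TPM and triangles for silent members. A dashed line marks 0.6, and both expressed and silent members lie on either side of it, RFPL4A at 0.182 and GCNA at 0.873.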

How the data were processed

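Per the labels' protocols, HEK293T RNA was isolated in TRIzol, and a VAHTS V3 kit for mRNA-seq gave the libraries. The authors deposited 1 table of TPM covering all 4 libraries. STAR and hg38 are named, per the submitters' processing notes. The sources used here give neither versions, annotation release, quantification nor strand use. TPM keeps no depth, so no counting interval was computed. The 43 members and all comparison lists were chosen with earlier results of these data known.

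The 15651 genes averaging 1 TPM or more were compared as log2(TPM + 1) with limma 3.58.1 in R 4.3.3 (two-sided, group as the term, variances trended on intensity). Benjamini-Hochberg adjustment covered this whole set, with 0.05 as threshold, and the procedure was tested on simulated data. The pseudocount of 1 understates fold changes of low genes. The text names every expressed member, those below 1 TPM that reached 0.3 TPM in a library, and from each other list the called genes (up to 4) or the 2 most abundant. Other genes named were chosen after their values were seen. Gene models and shared 31-base words came from GENCODE release 29 (GRCh38), promoters from RefSeq (GRCh38.p14). Alternatives were pseudocounts, filters, scalings, variance models, the replicate block and single libraries left out. After the data were seen, GC and length corrections were added. Figures used matplotlib 3.10.9.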

Additional observations from a re-analysis of the deposited data

How the results depend on the processing

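Over the whole table the 1853 calls became 0 with no filter on low values (5655 at an unadjusted p under 0.05), 1 without an intensity trend (4337), and 0 to 15 when single libraries were left out (3367 to 4035). The 5 member calls became 0 with no filter and 0 without an intensity trend, where 10 and 8 members had an unadjusted p under 0.05, and 0 to 2 with single libraries left out. Over the other 9 settings the whole table had 1547 to 2442 calls and the members 5 or 6. The 19 expressed members became 10 at a minimum of 5 TPM and 28 at 0.1 TPM, and were 19 or 20 with single libraries left out. The replicate block, whose numbers share only a label (correlation of deviations 0.03), gave 2442 calls, and 6 among members by adding DMC1. The log2 fold change of GCNA ran from 1.38 to 2.07, of RFPL4A from 1.34 to 2.19 and of TEX15 from -1.28 to -0.53 over all settings. Signs reversed only in differences that were not called. SYCP2 was at -0.0306 after GC correction and -0.0174 after GC and length correction, and PRAME at -0.0047 under quantile normalization. With single libraries left out, SYCP2 ran from -0.1642 (without oeFlag replicate 1) to 0.2591, with -0.0663 without oeRNH1 replicate 2, and SYCP3 from -0.0928 (without oeFlag replicate 2) to 0.4388. PRAME ran from -0.0051 (without oeFlag replicate 1) to 0.0457, MAGED1 from -0.0208 (without oeFlag replicate 1) to 0.045, with -0.0177 without oeRNH1 replicate 1, and TDRKH from -0.166 to 0.1225 (without oeFlag replicate 2), with 0.0602 without oeRNH1 replicate 1. The cause was not tested. Depth is unknown, so a value of 0 sets no limit on expression.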

Other observations

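Among related genes outside the list, RFPL4B, a further member of the RFPL family, was listed at 0.66 and 0.97 TPM in the oeRNH1 libraries, against 0 and 0.06 TPM in the oeFlag libraries, and RFPL2 at 1.02 and 0.94 TPM in the oeRNH1 libraries, against 0.69 and 0.89 TPM in the oeFlag libraries. Both averaged below 1 TPM and were not tested. MAGEA3 and MAGEA12 were at 7.95 and 3.23 TPM on average in the oeRNH1 libraries, against 5.51 and 2.06 TPM in the oeFlag libraries, and MAGEA10 was at 0.98 and 0.78 TPM in the oeRNH1 libraries, against 0.49 and 0.62 TPM in the oeFlag libraries. MAGEA3 and MAGEA12 did not pass limma at an adjusted p under 0.05, and MAGEA10 averaged below 1 TPM and was not tested. PLAC1 and SPA17, other antigens on the comparison list, were lower without overlap and not called, at 9.08 and 20.9 TPM on average in the oeRNH1 libraries, against 12.4 and 27.1 TPM in the oeFlag libraries.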
